A study of Bos taurus with 15 samples.

Results

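CYFIP2 and the other subunits of the WAVE regulatory complex were followed in bovine testis from animals that had or had not been given prednisolone, a synthetic glucocorticoid. The arrays held 14 probes of 10 WAVE complex genes among 21475 probes, chosen because the gene number, accession or description in the scanner files named CYFIP1, CYFIP2, NCKAP1, NCKAP1L, ABI1, ABI2, WASF1, WASF2, WASF3 or BRK1. Of these, 9 probes were named by gene number, 1 by accession and 4 by description. A total of 13 member probes passed the filter on dim probes, as did 18492 of all probes. CYFIP2 itself was picked because its values were lower with prednisolone in these same animals, so its difference between the groups is given as a description with no test.

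The WAVE complex is a heteropentamer that drives branched actin growth. A CYFIP subunit binds the small GTPase Rac, a NCKAP1 subunit is the scaffold beside it, an Abi subunit and the small BRK1 subunit hold the assembly together, and a WAVE protein of the WASF family carries the end that switches on the Arp2/3 complex once Rac has bound. In the testis, branched actin is known from Sertoli cells, where it lines the junctions that hold and release developing spermatids.

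The study used total RNA of testis from 15 cattle, collected at slaughter, with 1 single-colour Agilent array per animal. The 7 controls (animals 17, 18, 20, 21, 22, 23 and 24) received no treatment. The 8 treated animals (25 to 32) received oral prednisolone every day for 35 days, 30 mg to each animal per day. The labels call the animals cows although the tissue is testis, and they give no breed, age, housing or pairing. Values are log2 processed signal relative to the 75th percentile of the same array, so 0 is the level of that percentile and a level is comparable between animals but not between probes. All p-values below measure the spread between animals with 1 array each. In whole tissue, fewer cells of a type and less RNA per cell cannot be told apart.

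Testis markers were present. All 10 Sertoli, 7 Leydig and 7 measured spermatocyte markers, and 9 of 10 spermatid markers, were well above background on every array but that of prednisolone 30. On those arrays 4 of 6 measured spermatogonial markers were too. So were 4 of 6 neuron markers, so being well above background is not particular to testis cells. The array of prednisolone 30 stood apart from the rest. Its 75th percentile was 49.8 intensity units against 1220 to 2780 on the other 14 arrays, and 36.5% of its probes were well above background against 82.2% to 89.9%. Its log2 values correlated at 0.749 to 0.779 with those of the other arrays, which correlated at 0.950 to 0.993 among themselves. On it, 8 of the 13 member probes were not well above background. Its values in the authors' deposited table also did not follow its scanner file (correlation of probe-centred values 0.0367, against 0.931 to 0.974 for the other animals). Differences between the groups are therefore given with and without prednisolone 30. Control 17 carried more smooth muscle message, with a summed linear signal of the 5 peritubular and smooth muscle markers of 46.6 times the 75th percentile, against 11.3 to 20.9 in the other controls and 13.7 to 23.7 in the treated animals without prednisolone 30.

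CYFIP2, one of the paired Rac-binding subunits, was measured by probes A_73_101912 and A_73_113358, both filed under gene number 518833. With A_73_101912, the levels in the controls were -0.25 (animal 17), 1.22 (18), -1.17 (20), 0.88 (21), 0.26 (22), 0.19 (23) and -1.91 (24). The treated animals had -1.70 (25), -2.35 (26), -0.89 (27), -2.11 (28), -0.60 (29), -2.56 (30), -1.99 (31) and -1.36 (32). All 8 treated animals lay below the control median of 0.19, and 5 of the 7 controls lay above the highest treated animal. The groups still overlapped, because controls 20 and 24 fell inside the range of the treated animals. Of the 13 tested member probes, 0 had groups that did not overlap, with or without prednisolone 30. Over all tested probes the share was 0.0162% with the treated animals lower and 0.0324% with them higher, or 0.0324% and 0.0487% without prednisolone 30. Among all tested probes, 2.14% had every treated animal below the control median, and 3.84% did without prednisolone 30.

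The control mean of A_73_101912 was -0.11 ± 1.11 (SD, n = 7) and the treated mean was -1.69 ± 0.70 (SD, n = 8). The difference, prednisolone minus control, was -1.58 on the log2 scale (SE 0.43, 95% interval -2.50 to -0.66), a 3.00-fold lower mean. Without prednisolone 30 the treated mean was -1.57 ± 0.65 (SD, n = 7) and the difference -1.46 (SE 0.43, interval -2.37 to -0.55), or 2.75-fold. These intervals do not allow for the fact that the gene was picked from 18492 probes, among which this difference was number 2 from the lowest, or number 6 without prednisolone 30. In the authors' deposited table the log2 means were 10.79 ± 1.11 (SD, n = 7) and 9.33 ± 0.60 (SD, n = 8), and the difference computed from it was -1.45. There prednisolone 30 had 9.41 and lay inside the range of the other treated animals, 8.55 to 10.29, whereas in the scanner files it was the lowest treated animal.

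**Figure D1:**
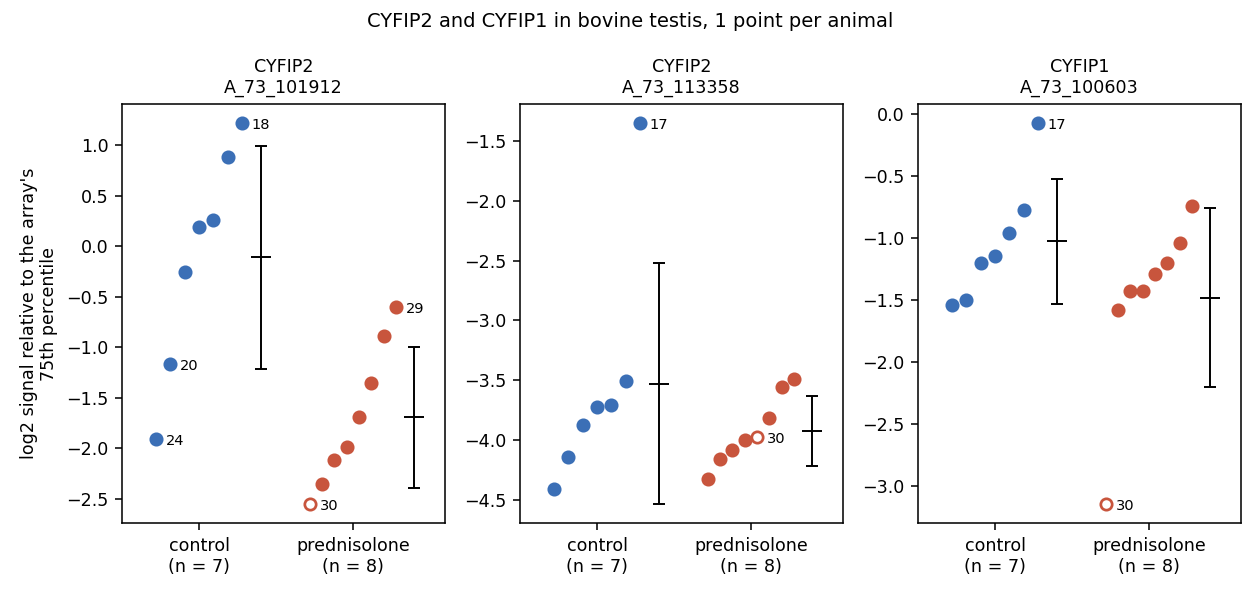
Log2 signal relative to the 75th percentile of the array for both CYFIP2 probes and the CYFIP1 probe, 1 point per animal sorted by level, with mean ± SD of all animals of a group (control n = 7, prednisolone n = 8) and prednisolone 30 as an open circle. On A_73_101912, 5 controls lie above every treated animal and controls 20 and 24 among them, whereas on the other probes the groups lie over each other apart from control 17 and, for CYFIP1, prednisolone 30.

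Few probes varied as much between animals as A_73_101912. Over the 14 arrays without prednisolone 30 its SD was 1.16, above that of 99.2% of tested probes, whose median SD was 0.324. Within the controls alone the SD of 1.11 was above that of 98.4% of probes, and within the treated animals without prednisolone 30 the SD of 0.651 was above that of 95.5%. The 2 spots of the probe on each array differed by at most 0.213 on these 14 arrays (median 0.0811) and by 0.252 on prednisolone 30. The highest and the lowest of the 14 animals were 3.57 apart. The probe was well above background on all arrays except that of prednisolone 30.

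Animals that shared a slide could lie far apart. On slide 3, control 21 had 0.88 and control 24 had -1.91, and on slide 2, control 22 had 0.26 and control 20 had -1.17. On slide 1, which held both groups, controls 17 and 18 averaged 0.48 and prednisolone 25 and 26 averaged -2.03, a difference of -2.51. Slide 4 gave -1.77, from control 23 against prednisolone 29 and 30, and -0.79 with prednisolone 29 as the only treated animal. Within the scan day shared by 3 controls and 6 treated animals the difference was -2.14, or -1.98 without prednisolone 30. A fit with slide as a block gave -2.21, and -1.94 without prednisolone 30. Only slides 1 and 4 held both groups, so the block fit takes its difference from the animals of those slides alone. Controls 20 and 24 were scanned on days that held no treated animal, as were controls 22 and 21, at 0.26 and 0.88. None of these controls enters the differences within slide 1, within slide 4, with slide as a block or within the shared scan day. Controls 20 and 24 had the lowest summed endothelial marker signal of the controls, 0.613 and 0.768 against 0.952 to 1.22 in the other 5. The treated animals without prednisolone 30 had 0.777 to 1.33, with a median of 1.21 beside 0.953 in the controls. No other marker list had both of these controls outside the range of the other 5. The endothelial list is named here after its values were seen. The part of the endothelial signal in the CYFIP2 values was not tested.

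The second CYFIP2 probe, A_73_113358, did not show the split. The controls had -1.35 (animal 17), -3.87 (18), -3.70 (20), -3.72 (21), -4.14 (22), -4.41 (23) and -3.51 (24), and the treated animals ranged from -4.33 (animal 32) to -3.49 (animal 27) with a median of -3.98. Control 17 lay far above every other animal, and the other 6 controls, from -4.41 to -3.51, overlapped almost all of the treated animals, with prednisolone 27 just above them. The means were -3.53 ± 1.01 (SD, n = 7) and -3.92 ± 0.29 (SD, n = 8), and the difference was -0.39 (SE 0.35, interval -1.13 to 0.34), or -0.39 (interval -1.14 to 0.36) without prednisolone 30. Without control 17 the control mean was -3.89 ± 0.33 (SD, n = 6) and the difference -0.031 (interval -0.41 to 0.35). Leaving out prednisolone 30 as well gave -0.024.

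The animals in which the probes of this gene were high were not the same. Control 18, the highest on A_73_101912, had -3.87 on A_73_113358, close to the treated median, and control 17, the highest on A_73_113358, had -0.25 on A_73_101912. Control 17 was also the animal with the raised smooth muscle markers, being the highest of the 14 animals for 5 of 5 smooth muscle, 5 of 6 endothelial and 8 of 12 leukocyte markers. The part of these markers in its CYFIP2 value was not tested. Which transcript regions the probes match is not known here, since the files used here hold no probe sequences.

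CYFIP1, the paralogue that takes the same Rac-binding place in the complex, was measured by A_73_100603. Its levels in the controls were -0.075 (animal 17), -1.14 (18), -1.20 (20), -0.96 (21), -1.50 (22), -1.54 (23) and -0.77 (24), and in the treated animals -1.04 (25), -1.20 (26), -0.74 (27), -1.43 (28), -1.29 (29), -3.15 (30), -1.43 (31) and -1.58 (32). Control 17 was again the highest animal, prednisolone 30 the lowest, and all others lay together between -1.58 and -0.74. The means were -1.03 ± 0.50 (SD, n = 7) and -1.48 ± 0.72 (SD, n = 8). The difference of -0.45 (interval -1.11 to 0.20) did not pass limma's test across all probes (adjusted p = 0.883). Without prednisolone 30 it was -0.22 (interval -0.65 to 0.22, limma adjusted p = 0.980), and without control 17 as well it was -0.057 (interval -0.40 to 0.28). The 6 controls that were left and the treated animals had means of -1.19 ± 0.30 (SD, n = 6) and -1.24 ± 0.28 (SD, n = 7).

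None of the tested partner probes passed the test. In limma, 0 of 18492 probes were called between the groups at an adjusted p under 0.05 (0%), with or without prednisolone 30, and the 11 tested member probes other than CYFIP2 had adjusted p from 0.883 to 0.977, or 0.980 to 0.999 without prednisolone 30. At an unadjusted p under 0.05, 457 probes passed (2.47%) and 813 without prednisolone 30 (4.4%), and 0 of the 11 partner probes were among either. With all animals, 3 of the 11 were higher with prednisolone and 8 lower, with a median difference of -0.25 beside 0.035 over all tested probes. Without prednisolone 30 the partner differences ran from -0.23 to 0.13 with a median of -0.080, beside 0.0096 over all probes.

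NCKAP1, the scaffold subunit that binds CYFIP in most tissues, had on probe A_73_114959 the smallest SD of the 13 tested member probes over the 14 arrays without prednisolone 30 (0.180). The controls ranged from 0.73 (animal 21) through a median of 0.88 to 0.99 (animal 17), and the treated animals from -0.57 (animal 30) through 0.63 to 0.93 (animal 31). The groups overlapped, with 5 of the 8 treated animals below every control. The means were 0.86 ± 0.11 (SD, n = 7) and 0.54 ± 0.49 (SD, n = 8), a difference of -0.33 (interval -0.74 to 0.088, limma adjusted p = 0.883). Without prednisolone 30 the treated mean was 0.70 ± 0.20 (SD, n = 7) and the difference -0.17 (interval -0.40 to 0.066). Its control SD of 0.107 was above that of only 1.15% of tested probes.

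A second NCKAP1 probe, A_73_114761, was named from a description that gives the older name HEM-2. It is filed under gene number 532692, whereas A_73_114959 is filed under 510404. Whether both probes measure the same gene was not tested. The controls ranged from -6.55 (animal 18) through -5.28 to -4.97 (animal 17), and 7 treated animals from -6.04 to -5.11. On the 14 arrays without prednisolone 30 the spots of this probe differed by a median of 0.70 and by at most 2.03. The SD between those animals was 0.51, so the levels were imprecise. Prednisolone 30 had 0.16, which alone turned the difference to 0.51 (interval -1.10 to 2.11, limma adjusted p = 0.890), against -0.23 (interval -0.76 to 0.30) without it. Its spots on that array gave processed signals of 1170 and 2.64 intensity units. The spot at 1170 had a background-subtracted signal of 6.91, a 169-fold ratio of processed to background-subtracted signal. Which processing step raised it was not tested. Over the 364 member spots of the other arrays for which this ratio could be taken it ran from 0.741 to 4.20, with a median of 0.968.

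NCKAP1L, the scaffold paralogue of blood cells, had levels from -2.83 (animal 23) through -2.60 to -2.22 (animal 22) in the controls and from -3.14 (animal 32) through -2.65 to -1.42 (animal 30) in the treated animals. The groups overlapped, with 3 treated animals below every control and prednisolone 30 above every other animal. The difference was -0.026 (interval -0.49 to 0.44, limma adjusted p = 0.977), and without prednisolone 30 it was -0.20 (interval -0.49 to 0.097). The 12 leukocyte markers, all well above background on the other 14 arrays, had a summed signal of 10.7 to 15.0 in the controls, 10.2 to 14.6 in the treated animals without prednisolone 30 and 12.4 in prednisolone 30. The part of leukocytes in the NCKAP1L values was not tested.

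The WAVE proteins themselves are encoded by WASF1, WASF2 and WASF3. WASF2, the widely expressed form, was measured by a pair of probes. On A_73_120923 the controls ranged from 1.37 through 1.51 to 1.86 and the treated animals from -0.61 through 1.50 to 1.80. On A_73_110579 the controls ranged from -1.18 through -0.41 to -0.12 and the treated animals from -3.32 through -0.60 to -0.22. On both probes prednisolone 30 was the lowest animal, and the other treated animals lay within or near the control range. The differences were -0.29 (interval -0.91 to 0.33) and -0.37 (interval -1.16 to 0.41), and without prednisolone 30 they were -0.024 (interval -0.31 to 0.26) and -0.026 (interval -0.36 to 0.30).

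WASF1, the form best known from neurons, had means of -2.52 ± 0.44 (SD, n = 7) and -2.42 ± 0.35 (SD, n = 8) on A_73_107639. Control 17 was its lowest animal at -3.26 and prednisolone 30 its highest at -1.69, and the difference was 0.10 (interval -0.34 to 0.54). It was 0.00096 (interval -0.38 to 0.38) without prednisolone 30, -0.018 without control 17 and -0.12 (interval -0.44 to 0.20) without both. WASF3, another WAVE form, had means of -0.52 ± 0.17 (SD, n = 7) and -0.77 ± 0.41 (SD, n = 8) on A_73_109305. Of the 8 treated animals 4 lay below every control and prednisolone 27 lay above every control, and the difference was -0.25 (interval -0.63 to 0.13), or -0.13 (interval -0.40 to 0.14) without prednisolone 30.

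The Abi subunits link WAVE to the rest of the complex and take up signals from kinases. ABI1 on A_73_107582 ranged from -1.28 (animal 23) through -0.44 to -0.20 (animal 17) in the controls and from -1.40 (animal 30) through -0.63 to -0.13 (animal 27) in the treated animals. The difference was -0.13 (interval -0.55 to 0.29), or -0.027 without prednisolone 30. A further probe, A_73_115383, carries the ABI1 gene number but a description of a prenyl diphosphate synthase. It was well above background on 1 of 15 arrays, was not tested, and is not read as ABI1.

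ABI2 on A_73_106096 had -2.81 ± 0.21 (SD, n = 7) in the controls and -2.35 ± 0.94 (SD, n = 8) in the treated animals, a difference of 0.46 (interval -0.27 to 1.19). Prednisolone 30 had -0.059, whereas the other 7 treated animals lay between -3.01 and -2.49, and without it the difference was 0.13 (interval -0.13 to 0.39). On that array the spots of the probe gave 351 and 6.51 intensity units, and the higher value was 7.42-fold its background-subtracted signal.

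BRK1, the small subunit needed for the complex to be stable, had -0.13 ± 0.21 (SD, n = 7) and -0.56 ± 1.03 (SD, n = 8) on A_73_116926. Prednisolone 30 had -3.02, and the other treated animals lay between -0.77 and 0.053 beside -0.48 to 0.10 in the controls. The difference was -0.43 (interval -1.21 to 0.35), or -0.080 (interval -0.38 to 0.22) without that animal.

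**Figure D2:**
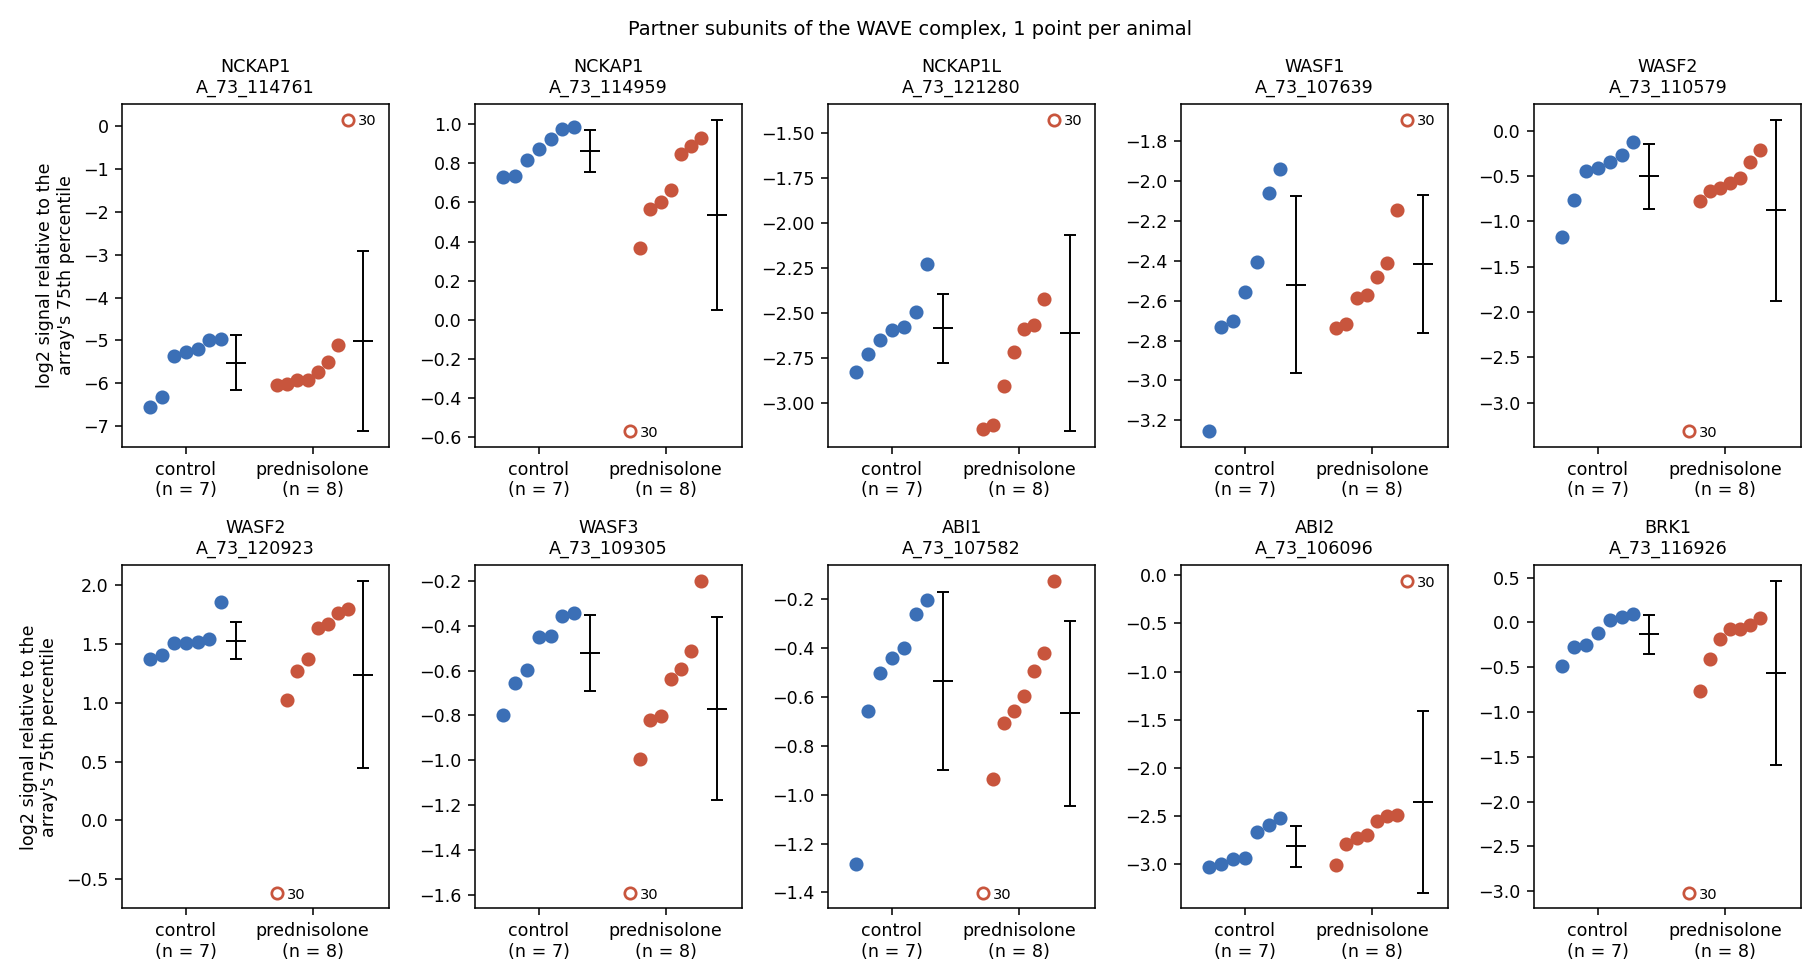
Log2 signal relative to the 75th percentile of the array for the 10 tested probes of the NCKAP1, WAVE, Abi and BRK1 subunits, 1 point per animal sorted by level, with mean ± SD of all animals of a group and prednisolone 30 as an open circle. Prednisolone 30 lies apart from the other treated animals on most panels, below them for WASF2 and BRK1 and above them for ABI2 and A_73_114761 of NCKAP1, and the remaining 14 animals overlap on every panel.

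The intervals of all 11 partner probes included 0 with and without prednisolone 30, and without it they reached no lower than -0.76. CYFIP2 was chosen for its difference and the partners were not, so its interval is not read against 0 or against theirs.

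**Figure D3:**
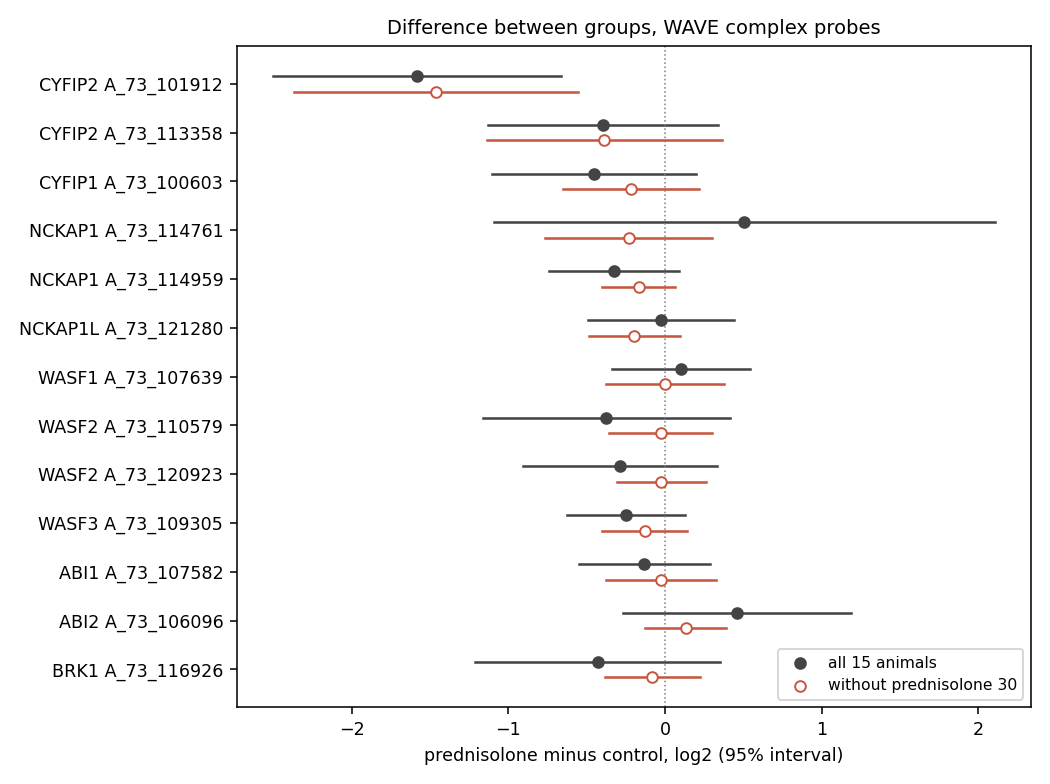
Difference between the group means (prednisolone minus control, log2) with its 95% interval for the 13 tested WAVE complex probes, over all 15 animals (filled) and without prednisolone 30 (open). The intervals of the 11 partner probes all include 0. Those of CYFIP2 A_73_101912 (-2.50 to -0.66 and -2.37 to -0.55) are shown as a description, since the gene was picked for this difference.

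The probes whose animal-to-animal pattern came nearest to A_73_101912 were sought over the 14 arrays without prednisolone 30, by the root mean square difference of log2 values after each probe was centred on its own mean. The named genes with the smallest values were SYT14, a synaptotagmin family member (0.780), KRT17, a keratin (0.780), CCN4, a matricellular protein (0.818), PTPRQ, a receptor phosphatase (0.821), and OR6B3, an olfactory receptor (0.823). A probe with no variation at all would score 1.11, so even these shared only part of the pattern. With all 15 arrays, 0 of these 5 stayed among the 5 nearest. Within the complex, WASF2 A_73_110579 came nearest at 1.03 (rank 720 among tested probes), CYFIP1 scored 1.14, and the second CYFIP2 probe scored 1.26 (rank 15524).

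Other genes around the complex were read from a list of 87, of which 82 had a probe and 81 were tested, each through its probe with the highest mean. Of these, 28 were higher and 53 lower with prednisolone, with a median of -0.11, beside 10129 higher and 8363 lower among all tested probes (median 0.035), and 0 passed limma's adjusted threshold. NCK2 was the only one of the 81 with an unadjusted p under 0.05, where 2.47% of all tested probes had one. Without prednisolone 30, 34 were higher and 47 lower, with a median of -0.059, beside 9623 higher and 8869 lower among all probes (median 0.0096). Of the 81, 0 passed, and 2 had an unadjusted p under 0.05, namely NCK2 and CFL1, the actin-severing protein cofilin, which differed by 0.26 and is named here after its value was seen. The share over all probes was 4.4%, so neither count stood above the background. The genes named below have the smallest unadjusted p of their role, so a one-sided count of animals comes with that choice. Such counts are a description, and the share of all probes with them is not given here.

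Upstream of the complex, 3 of the 8 Rac and Cdc42 family GTPases were higher and 5 lower (median -0.12), or 2 and 6 without prednisolone 30 (median -0.099). RAC1, the GTPase that CYFIP binds, had 0.47 ± 0.33 (SD, n = 7) in the controls and 0.12 ± 0.46 (SD, n = 8) in the treated animals, a difference of -0.35, or -0.23 without prednisolone 30. RHOA, which drives contractile actin bundles, differed by -0.20, or -0.097 without prednisolone 30. The 14 tested Rac activators were exchange factors together with the adaptors ELMO1 and ELMO2. Of these, 7 were higher and 7 lower (median -0.037), or 6 and 8 without prednisolone 30 (median -0.049). VAV2 differed by -0.36 (-0.20 without prednisolone 30), and SOS1 by 0.22, with all 8 treated animals above the control mean, or 0.19 without prednisolone 30.

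Of 14 adaptors, binders and kinases of the complex, 7 were higher and 7 lower (median 0.030), and likewise 7 and 7 without prednisolone 30 (median -0.00053). NCK2, an adaptor that recruits the complex to phosphorylated receptors, had -7.18 ± 0.59 (SD, n = 7) in the controls and -6.39 ± 0.81 (SD, n = 8) in the treated animals. Its probe was dim, with the lowest control mean of the 81 tested genes. CAPZA3, which did not pass the filter on dim probes, had a control mean of -8.90. The NCK2 difference of 0.80 (interval 0.060 to 1.53) had all 8 treated animals above the control mean and did not pass the correction (limma adjusted p = 0.883). It was 0.53 without prednisolone 30 (limma adjusted p = 0.980). BAIAP2, the membrane-binding protein IRSp53 that joins Rac to WAVE, differed by 0.29, or 0.18 without prednisolone 30, and its other 2 probes had the same sign (0.77 and 0.36).

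The Arp2/3 complex, which WAVE activates, had all 9 tested subunits lower with prednisolone (median -0.20), from -0.47 to -0.020. Without prednisolone 30, 4 were higher and 5 lower (median -0.065), so the shared sign rested on that animal. ARPC1A differed by -0.32, with 0 of 8 treated animals above the control mean, and by -0.28 without prednisolone 30. ARPC1B, its paralogue, differed by -0.35, or -0.16 without prednisolone 30. Of the 11 other activators of Arp2/3 and their partners, 5 were higher and 6 lower with and without prednisolone 30. WASL, the N-WASP protein that acts under Cdc42, differed by 0.23 with and without prednisolone 30, with all 8 treated animals above the control mean. CTTN, the branch-stabilising protein cortactin, differed by -0.21 (-0.16 without prednisolone 30).

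Among the 8 inhibitors and branch regulators of Arp2/3, 1 was higher and 7 were lower, with and without prednisolone 30 (medians -0.26 and -0.15). GMFB, which takes branches apart, differed by -0.40 (-0.27 without prednisolone 30), and CORO1C, a coronin, by -0.45 (-0.21 without prednisolone 30). A second GMFB probe had the opposite sign with all animals, 0.55, and -0.0057 without prednisolone 30. Of 17 genes of actin and its turnover, 5 were higher and 12 lower (median -0.20), but 9 were higher and 8 lower without prednisolone 30 (median 0.0064). ACTB, cytoplasmic actin, differed by -0.32 (-0.17 without prednisolone 30), and PFN3, a profilin of male germ cells, by 0.32 (0.34 without prednisolone 30). Apart from NCK2, each of these named genes had a 95% interval that included 0 with all animals.

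**Figure D4:**
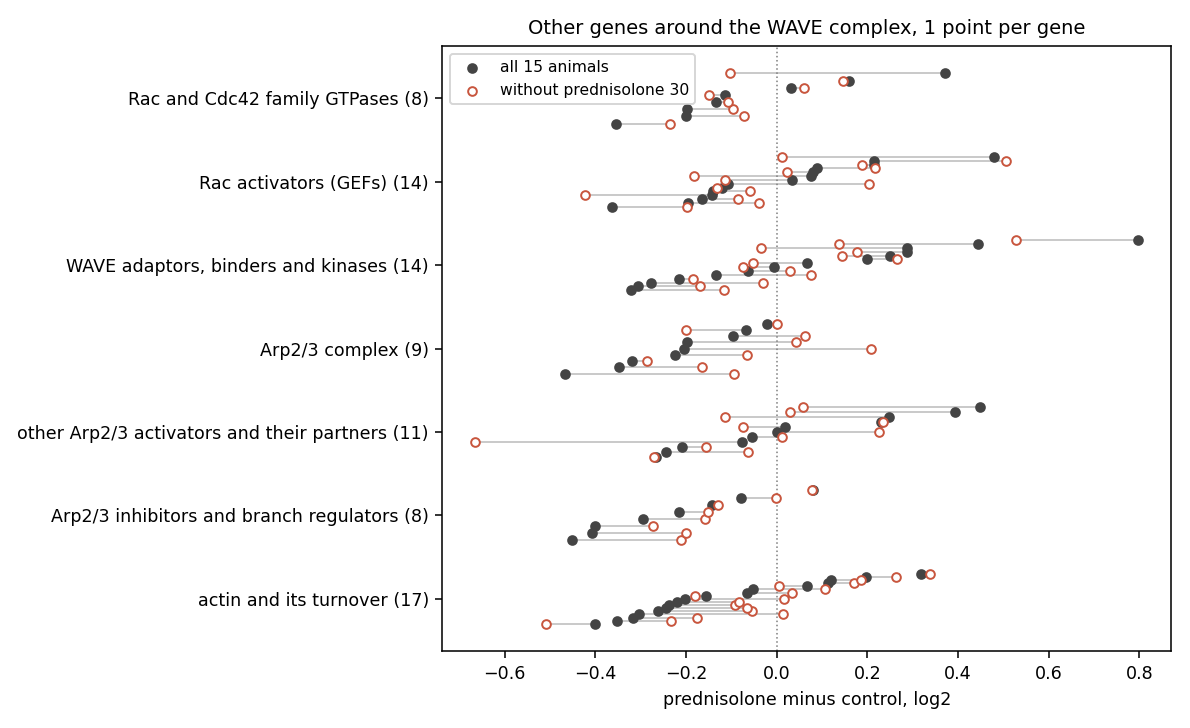
Difference between the group means (prednisolone minus control, log2) of 81 tested genes around the WAVE complex, grouped by role with the number of genes in brackets, 1 filled point per gene over all 15 animals joined to its open point without prednisolone 30. The 9 Arp2/3 subunits lie below 0 over all animals (median -0.20) and on both sides of 0 without prednisolone 30 (median -0.065), and NCK2 at 0.80 is the point farthest to the right.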

How the data were processed

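The deposited scanner files give spot intensity. Feature Extraction 9.5.1.1 made them, per the file headers. It joined the scans taken at each sensitivity setting and gave a background-subtracted, multiplicatively detrended signal, per the series' design text. The authors also deposited a table of linear intensity values with column medians of 434.8 to 491.7. The submitters' processing notes name R 2.11.1, but no source used here says how those columns were levelled or which genome build the array design used. No coordinates are therefore printed.

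Control spots and outlier spots were left out, the spots of a probe averaged, and the log2 processed signal expressed as the distance from the array's 75th percentile. Probes well above background on at least 7 of 15 arrays were tested with limma 3.58.1 in R 4.3.3 (two-sided, Benjamini-Hochberg over all 18492 tested probes, threshold 0.05, tested on simulated data). Symbols came from gene numbers, accessions and descriptions matched to RefSeq genes of bovine assembly ARS-UCD2.0, and 16739 of 21475 probes had one. In the text are every member, the 2 genes per role with the smallest unadjusted p and the 5 named probes most like A_73_101912. The members, lists and tests were chosen with earlier results of these data known. Alternatives covered scaling, background correction, filters, blocks, array weights, the deposited table and left-out animals. For arrays, the number of animals limits the precision.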

Additional observations from a re-analysis of the deposited data

Results flagged for a closer look

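In the 26 groups of member values checked, 11 had 1 animal whose gap to the nearest of the others was large for the range of its group, where chance gives about 1.3 (1 in 20). Of these, 8 were in prednisolone 30, the array with low signal: -3.15 for CYFIP1 (the other treated animals -1.58 to -0.74), 0.16 for NCKAP1 A_73_114761 (-6.04 to -5.11), -0.57 for NCKAP1 A_73_114959 (0.37 to 0.93), -1.42 for NCKAP1L (-3.14 to -2.42), -3.32 for WASF2 A_73_110579 (-0.78 to -0.22), -0.61 for WASF2 A_73_120923 (1.02 to 1.80), -0.059 for ABI2 (-3.01 to -2.49) and -3.02 for BRK1 (-0.77 to 0.053). They lay on both sides of the other animals.

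Control 17 stood apart with -1.35 on CYFIP2 A_73_113358 (the other controls -4.41 to -3.51). Control 23 stood apart with 1.86 on WASF2 A_73_120923 (the other controls 1.37 to 1.54) and with -1.28 on ABI1 (-0.66 to -0.20). No animal stood apart in this way on CYFIP2 A_73_101912.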

How the results depend on the processing

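CYFIP2 was picked for lower values in these same animals, so the sign of its difference under the alternatives is not independent evidence. The alternatives also overlap. Leaving out the filter on dim probes changes no difference of a tested probe. The block fits rest on the slides or scan day that held both groups, which were also fitted alone. The difference of CYFIP2 A_73_101912 was negative under all 33 alternatives, from -2.51 to -1.18. It ran from -1.88 to -1.36 as each animal was left out in turn. Within slide 4 without prednisolone 30, where 1 animal a group remained, it was -0.79. That of CYFIP2 A_73_113358 moved to -1.16 within slide 1 and 0.52 within slide 4, and ran from -0.54 to -0.031 with 1 animal left out, being smallest without control 17. No probe passed limma's adjusted threshold under any of 34 alternatives; the smallest adjusted p was 0.0549, with array weights, and 84 to 1226 probes had an unadjusted p under 0.05.

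Partner differences that turned sign did so without a call. Without control 17 and prednisolone 30 together, NCKAP1 A_73_114761 was -0.14, WASF1 -0.12, WASF2 A_73_110579 7.4e-05 and ABI1 0.028. Normexp, which moved the median of all probes to 0.11, gave 0.11 for NCKAP1L and 0.064 for WASF3. The deposited table gave -0.21 for NCKAP1 A_73_114761 and -0.024 for WASF1. With slide as a block NCKAP1L was 0.25, and with scan day as a block, or within scan day 1, it was 0.18. Within slide 1, WASF2 A_73_120923 was 0.32, ABI2 -0.20 and BRK1 0.17, and within slide 4, NCKAP1L was 0.76 and ABI1 0.23. Array weights gave -0.26 for NCKAP1 A_73_114761 and 0.062 for WASF2 A_73_120923. Among alternatives added after the data were seen, the slide block without prednisolone 30 gave 0.14 for WASF2 A_73_120923, -0.10 for ABI2 and 0.058 for BRK1, and scan day without it, as a block or within day 1, 0.0061 for ABI1 and -0.018 for ABI2. The deposited table without control 17 gave -0.084 for NCKAP1 A_73_114761, -0.15 for WASF1 and 0.015 for ABI1, and without prednisolone 30, -0.28 and -0.012 for the first 2. With 1 animal left out, NCKAP1L ran from -0.20 to 0.050, NCKAP1 A_73_114761 from -0.23 to 0.65 and WASF1 from -0.018 to 0.20. The causes were not tested. No paired analysis was possible because the groups share no animal numbers. Of the 5 probes most like A_73_101912, 0 were kept with all 15 arrays. Dim signal limits prednisolone 30 and the probes near background.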
